A study of Homo sapiens and Mus musculus with 99 samples.

Results

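The surfactant genes of the alveolar type 2 cell were followed as a set of 10 named mouse genes, Sftpc, Sftpb, Sftpa1, Sftpd, Abca3, Lamp3, Napsa, Slc34a2, Etv5 and Nkx2-1. They were picked by Ensembl identifier out of 55401 mouse gene IDs in a count table (55400 in Lung4). All 10 were found in the 7 mouse tables and all 10 passed the filter on low counts in each comparison. The study gave mice A. alternata extract (ALT), pore-forming proteins or mock buffer (DPBS) through the nose and sequenced RNA of isolated lung epithelial cells 6 h later, in 48 libraries of 23 groups. The comparisons with DPBS ask how these cells respond early to such proteins.

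The groups came from 7 experiments. Lung1 held ALT and DPBS, with 3 libraries each, and every other group had 2 libraries. Lung2 held Aeg-S/L, Aeg-S, Aeg-L and DPBS. Lung3 held WT ALT, aegs KO ALT, aegl KO ALT and DPBS, where the first word names the extract. Lung4, whose mice are labelled WT, held Lysenin, PlyA2EryB, LSL and DPBS. IL33KO1 held ALT, Aeg-S/L and DPBS, and IL33KO2 held Lysenin, PlyA2EryB, LSL and DPBS. All mice of these last experiments, DPBS mice included, are labelled IL-33 KO. Rag2gc held Aeg-S/L and DPBS in mice labelled Rag2-/-; gc-/-, DPBS mice included. Mice of Lung1, Lung2 and Lung3 carry no genotype label. The labels give no doses, ages, sex or strain, and no number of mice for a library. The submitters call the libraries of a group biological replicates. With the number of mice unknown, p-values measure the spread between these libraries.

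Alveolar type 2 cells line the air sacs of the lung and make surfactant, a film of lipid and protein that keeps the air sacs open. The lipid is packed with the proteins SP-B and SP-C into lamellar bodies, which are storage organelles related to lysosomes, and is secreted from them. The transcription factor Nkx2-1 switches on many surfactant genes, and the ETS factor Etv5 maintains the type 2 cell state in mice. SP-A and SP-D, the products of Sftpa1 and Sftpd, are secreted lectins that bind microbes. Some surfactant proteins, SP-D among them, are also made by other airway cells.

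The genes lie apart in the mouse genome except for a pair on chromosome 14. Coordinates are mm10, as the count tables give them. Sftpa1 (ENSMUSG00000021789.14, 14:41131782-41136452, plus strand) and Sftpd (ENSMUSG00000021795.10, 14:41172214-41185149, minus strand) are separated by 35761 bases. Sftpc (ENSMUSG00000022097.4) is at 14:70520949-70524081 on the minus strand, and Sftpb (ENSMUSG00000056370.15) at 6:72304610-72314371 on the plus strand. Of the lamellar body genes, Abca3 (ENSMUSG00000024130.16) is at 17:24351950-24410201, Lamp3 (ENSMUSG00000041247.8) at 16:19653378-19706375 and Napsa (ENSMUSG00000002204.9) at 7:44572380-44586862. Slc34a2 (ENSMUSG00000029188.14) is at 5:53038081-53071664. Of the transcription factors, Etv5 (ENSMUSG00000013089.15) is at 16:22381309-22439719 and Nkx2-1 (ENSMUSG00000001496.15) at 12:56531958-56536908. Exons of 2 members share bases with a gene on the opposite strand, and the libraries do not mark the strand. Abca3 shares 914 of its 9374 counted bases with a gene that reached at most 25.8 CPM (counts per 1000000 counts of the library), where Abca3 was at 782 CPM or more. Napsa shares 502 of 2660 bases with a gene that reached at most 0.557 CPM, where Napsa was at 644 CPM or more.

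Libraries held 29.6 to 66.3 M counts, and no member had fewer than 4674 counts in any of them. Sftpc had the highest count of all genes in 48 of 48 libraries, and the 10 members together held 5.75% to 15.8% of all counts. Mitochondrial genes held 2.40% to 5.83%. Markers of other lung cell types were not analysed here, so the epithelial label is checked only by these type 2 genes. In such bulk RNA, fewer type 2 cells and less RNA per type 2 cell cannot be told apart.

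Some libraries stood apart from their partner. Lung3 DPBS replicate 2 had 90209 CPM of Sftpc and 819 CPM of Abca3, against 54807 and 2793 CPM in Lung3 DPBS replicate 1. IL33KO1 DPBS replicate 1 had 1756 CPM of Sftpd and 699 CPM of Napsa, with 5.83% mitochondrial counts, against 4540 CPM, 1771 CPM and 3.06% in replicate 2. IL33KO2 DPBS replicate 1 had 2879 CPM of Sftpd and 739 CPM of Nkx2-1, against 4804 and 487 CPM in replicate 2. In Lung2, the members held 13.2% of counts in Aeg-S replicate 2 and 9.69% in replicate 1. Counts of members that rest on these libraries, and some of the changes, are given with and without them. Other changes, such as those of Nkx2-1, Sftpc and Abca3 in IL33KO2, are given only with all libraries. Where leaving out 1 library leaves a group with 1, that library is assumed to vary like the other groups. Counts of members without a library are given without the share of all genes called in that fit. They therefore cannot tell a change of the members from a general change in calls. The part these differences play in the results was not tested beyond that.

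In mock-treated mice the members spanned a wide range of levels. On the scale of CPM per kb of counted gene length, which allows genes to be compared, Sftpc had a median of 58195 over the 15 DPBS libraries, with a range of 39570 to 87242. Sftpb followed with a median of 9708 and Sftpa1 with 6388. Sftpc did not overlap any other member, whereas Sftpb, at 7153 to 10235 CPM per kb, overlapped Sftpa1, at 3602 to 10435. Slc34a2 had a median of 2705, Lamp3 of 1173 and Sftpd of 917 CPM per kb. Napsa stood at 444, Abca3 at 274, Etv5 at 254 and Nkx2-1 at 161 CPM per kb, and the last 3 overlapped one another. From Sftpb down, every neighbour in this order overlapped the next.

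**Figure D1:**
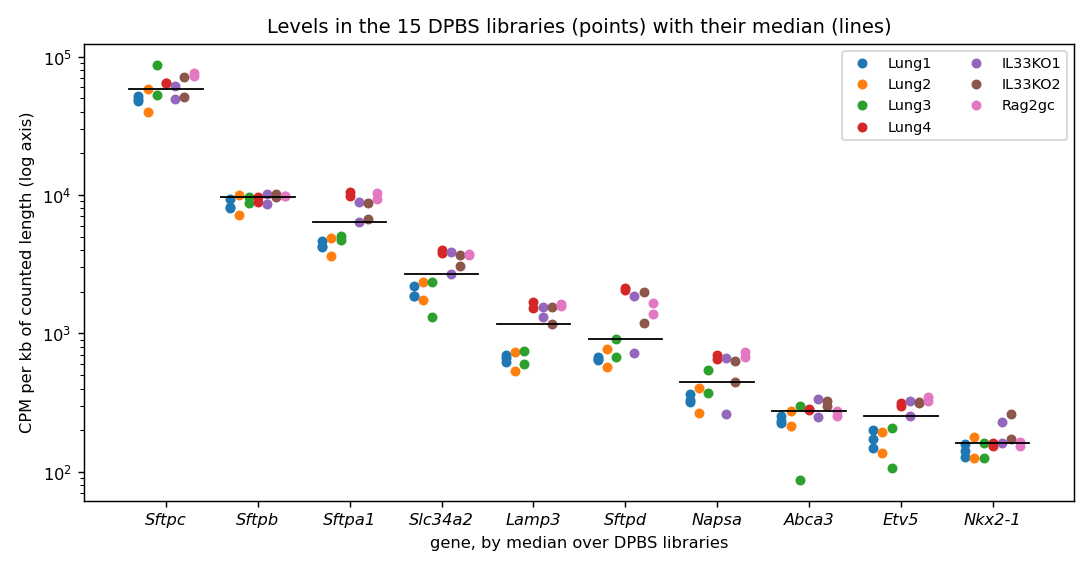
Level of each member in the 15 DPBS libraries, in CPM per kb of counted length on a log axis. Points are libraries coloured by experiment and lines are medians, from 58195 for Sftpc to 161 for Nkx2-1. Sftpa1, Lamp3 and Slc34a2 lie higher in all DPBS libraries of Lung4, IL33KO1, IL33KO2 and Rag2gc than in any of Lung1, Lung2 and Lung3.

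ALT lowered 9 of the 10 members in Lung1, and Sftpd was the exception. By edgeR's quasi-likelihood test, at an adjusted p under 0.05 over all genes, 9 members fell and 1 rose, while 30.1% of all 17801 genes tested fell and 28.5% rose. The median log2 change was -0.62 over the members and -0.01 over all genes. Etv5 fell most. It had 197, 252 and 284 CPM with ALT, against 704, 607 and 821 CPM with DPBS. Every ALT library was below every DPBS library, and the log2 change was -1.48 ± 0.14 (SE, n = 3 each; adjusted p = 2.17e-06). Slc34a2, the sodium-dependent phosphate transporter of the type 2 cell surface, had 3480, 4128 and 4583 CPM with ALT, against 9394, 9415 and 11076 CPM with DPBS. Its log2 change was -1.23 ± 0.12 (SE). Abca3, which pumps phospholipid into lamellar bodies, fell by 1.16 on the log2 scale, and Nkx2-1 fell by 0.94. Lamp3, a membrane protein of the lamellar body, fell by 0.68.

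The genes of the secreted proteins moved less in Lung1. Sftpc fell by 0.56 on the log2 scale, with 30036, 33418 and 35896 CPM in ALT libraries, against 50743, 48979 and 53611 CPM in DPBS libraries. Sftpb fell by 0.46 and Sftpa1 by 0.33. Napsa, the aspartic protease that helps to cut the SP-B precursor, had the smallest change. It had 644, 727 and 751 CPM with ALT, against 885, 846 and 970 CPM with DPBS, a log2 change of -0.29 ± 0.09 (SE; adjusted p = 0.0165). Its call was lost without ALT replicate 1, at an adjusted p of 0.067. Sftpd ran the other way, with 1964, 2072 and 2171 CPM in ALT libraries, against 1570, 1545 and 1628 CPM in DPBS libraries. The groups did not overlap, and Sftpd rose by 0.45 ± 0.08 (SE; adjusted p = 0.000392). Mitochondrial counts made up 2.44% to 2.81% of ALT libraries, against 3.18% to 4.28% of DPBS libraries.

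**Figure D2:**
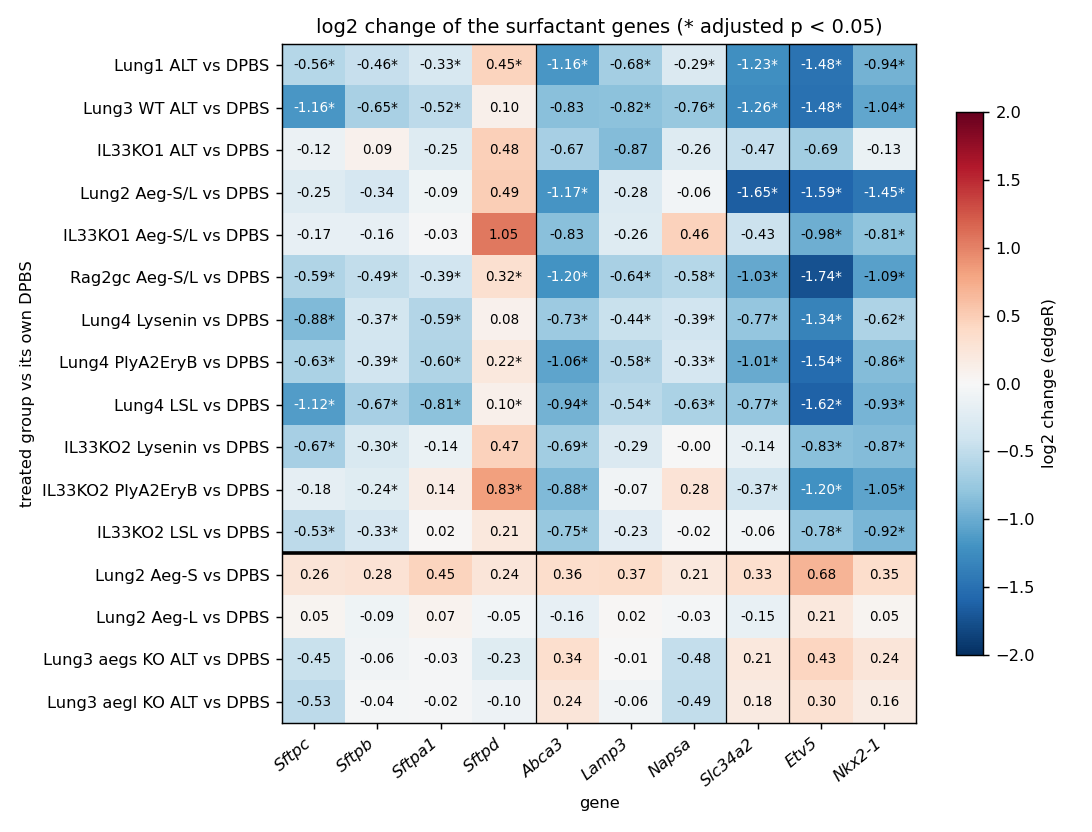
log2 change of each member in each treated group against its own DPBS, with an asterisk at an adjusted p under 0.05 by edgeR. Rows above the line are the 12 comparisons with ALT or a complete pore-forming protein (Aeg-S/L, Lysenin, PlyA2EryB or LSL), where Sftpd is above 0 throughout and Etv5 is between -1.74 and -0.69. Rows below the line are Aeg-S, Aeg-L and the 2 knockout extracts, with no asterisk.

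In Lung3, where the same kind of extract is labelled WT ALT, 8 of the 10 members fell and none rose, while 18.8% of all genes tested fell and 15.5% rose. Etv5 had 201 and 258 CPM with WT ALT, against 852 and 440 CPM with DPBS. The log2 change was -1.48 ± 0.27 (SE, n = 2 each; adjusted p = 0.00391). Slc34a2 fell by 1.26, Sftpc by 1.16 and Nkx2-1 by 1.04 on the log2 scale. The members that did not pass were Abca3, at -0.83 ± 0.42, and Sftpd, at 0.10 ± 0.21 (SE). Abca3 had 917 and 1077 CPM with WT ALT, against 2793 and 819 CPM with DPBS, so the DPBS libraries lay on either side. Sftpd had 1958 and 2244 CPM with WT ALT, against 1642 and 2217 CPM with DPBS, so the groups overlapped. Without DPBS replicate 2, 9 members fell and 1 rose, with Etv5 at -1.86, Abca3 at -1.45, Sftpc at -0.69 and Sftpd at 0.39. Without DPBS replicate 1, 8 members fell, with Etv5 at -1.03, Sftpc at -1.53, Abca3 at 0.20 and Sftpd at -0.16. Without WT ALT replicate 1, 3 members fell: Lamp3, Etv5 and Nkx2-1.

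With the extracts labelled aegs KO ALT and aegl KO ALT, no member passed against DPBS in Lung3, where the DPBS libraries lay far apart. By edgeR, 0 of 10 members passed against DPBS for either extract, as did 0% of all genes, and DESeq2 called 0 members too. At an unadjusted p under 0.05 the count of members was also 0 for each extract. Sftpc was at -0.45 ± 0.26 and -0.53 ± 0.26 with aegs KO ALT and aegl KO ALT, and Napsa at -0.48 ± 0.23 and -0.49 ± 0.23 (SE). Etv5 was at 0.43 ± 0.27 and 0.30 ± 0.27. With errors of this size, changes like those of Sftpc and Napsa with ALT in Lung1 cannot be told from none. Etv5 had 870 and 893 CPM with aegs KO ALT and 873 and 737 CPM with aegl KO ALT, against 852 and 440 CPM with DPBS. Without DPBS replicate 1, so against replicate 2 alone, 3 members fell and 4 rose with aegs KO ALT, and 3 fell and 3 rose with aegl KO ALT. Sftpc was then at -0.81 and Abca3 at 1.39 with aegs KO ALT. Without DPBS replicate 2, 0 members passed for either extract, and Etv5 was at 0.07 with aegs KO ALT.

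Against WT ALT, a comparison that does not use DPBS levels, 5 members were higher with aegs KO ALT and 5 with aegl KO ALT. These were Sftpb, Lamp3, Slc34a2, Etv5 and Nkx2-1 in each case, while 15.7% and 15.2% of all genes were higher and 13.2% and 12.7% lower. Etv5 differed most, by 1.91 ± 0.28 with aegs KO ALT (adjusted p = 0.00147) and by 1.78 ± 0.28 with aegl KO ALT (SE; adjusted p = 0.00217). Sftpd was the only member on the other side, at -0.34 ± 0.21 with aegs KO ALT and -0.20 ± 0.21 with aegl KO ALT, and did not pass. It had 1591 and 1794 CPM with aegs KO ALT and 1906 and 1809 CPM with aegl KO ALT, against 1958 and 2244 CPM with WT ALT. Every knockout-extract library was below every WT ALT library for Sftpd. Napsa lay closest to WT ALT among the members that were higher, with 879 and 916 CPM for aegs KO ALT and 949 and 838 CPM for aegl KO ALT, against 682 and 770 CPM for WT ALT. Napsa changed by 0.28 ± 0.23 and 0.27 ± 0.23 (SE). With DPBS replicate 2 left out of the fit, where it adds only to the pooled spread (a check chosen after seeing the data), 9 members were higher and 1 lower with aegs KO ALT, and 9 were higher with aegl KO ALT. The count was 3 with aegs KO ALT without WT ALT replicate 1, without aegs KO ALT replicate 1 or without aegs KO ALT replicate 2. It was 3 with aegl KO ALT without WT ALT replicate 1 or without aegl KO ALT replicate 1. Slc34a2, Etv5 and Nkx2-1 passed in each of these fits.

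The proteins labelled Aeg-S and Aeg-L were given alone and together in Lung2. Given together as Aeg-S/L, they lowered 4 members, namely Slc34a2, Etv5, Nkx2-1 and Abca3, while 19.7% of all genes fell and 19.1% rose. Slc34a2 fell most, with 2927 and 3094 CPM in Aeg-S/L libraries, against 11880 and 8715 CPM in DPBS libraries. Its log2 change was -1.65 ± 0.27 (SE, n = 2 each; adjusted p = 0.00231). Etv5 had 207 and 205 CPM with Aeg-S/L, against 798 and 559 CPM with DPBS, and fell by 1.59 ± 0.24. Nkx2-1 fell by 1.45 ± 0.22, with 147 and 144 CPM in Aeg-S/L libraries, against 510 and 357 CPM in DPBS libraries. Abca3 fell by 1.17 ± 0.28, and its call was lost without Aeg-S/L replicate 2 (-0.98, adjusted p = 0.092) or DPBS replicate 1 (-0.95, adjusted p = 0.064).

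The surfactant protein genes did not pass in that comparison. Sftpc changed by -0.25 ± 0.31, Sftpb by -0.34 ± 0.27 and Sftpa1 by -0.09 ± 0.26 (SE). With errors of this size, changes like those of the same genes with ALT in Lung1 cannot be told from none. Napsa had the smallest change, with 757 and 804 CPM for Aeg-S/L, against 1068 and 708 CPM for DPBS, or -0.06 ± 0.24. Sftpd had 2065 and 2089 CPM with Aeg-S/L, against 1855 and 1372 CPM with DPBS. Both Aeg-S/L libraries were above both DPBS libraries, and the log2 change was 0.49 ± 0.21 with an adjusted p of 0.104. Without Aeg-S replicate 2 in the fit, a check chosen after seeing the data, it passed, at 0.48 with an adjusted p of 0.046, and without DPBS replicate 1 it passed at 0.76 with an adjusted p of 0.045. The members held 11.5% of counts in DPBS replicate 1 and 8.08% in DPBS replicate 2.

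Neither Aeg-S nor Aeg-L alone moved a member past the threshold. By edgeR, 0 of 10 passed for each protein, as did 0% of all genes, and DESeq2 called 0. At an unadjusted p under 0.05, 1 member passed with Aeg-S and 0 with Aeg-L. Etv5 was the member farthest from 0 with Aeg-S. It had 922 and 1136 CPM with Aeg-S, against 798 and 559 CPM with DPBS, and changed by 0.68 ± 0.24 (SE; adjusted p = 0.698). Napsa was nearest to 0, with 864 and 1086 CPM for Aeg-S, against 1068 and 708 CPM for DPBS, at 0.21 ± 0.24. All 10 members lay above 0 with Aeg-S, at a median of 0.34 against -0.01 over all genes. With Aeg-L the members lay between -0.16 and 0.21. With an error like that of Napsa, a change like that of Napsa with ALT in Lung1 cannot be told from none. Set directly against the single proteins, Aeg-S/L lowered Abca3, Slc34a2, Etv5 and Nkx2-1 in each case. Against Aeg-S, where 19.9% of all genes fell and 19.4% rose, Etv5 fell by 2.27 ± 0.25, Slc34a2 by 1.98 ± 0.27, Nkx2-1 by 1.80 ± 0.22 and Abca3 by 1.53 ± 0.28. Without Aeg-S replicate 1, 8 members fell in that comparison. Against Aeg-L, where 19.7% of all genes fell and 18.9% rose, the falls were 1.80 ± 0.24 for Etv5, 1.50 ± 0.27 for Slc34a2, 1.50 ± 0.22 for Nkx2-1 and 1.01 ± 0.28 for Abca3 (SE).

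**Figure D3:**
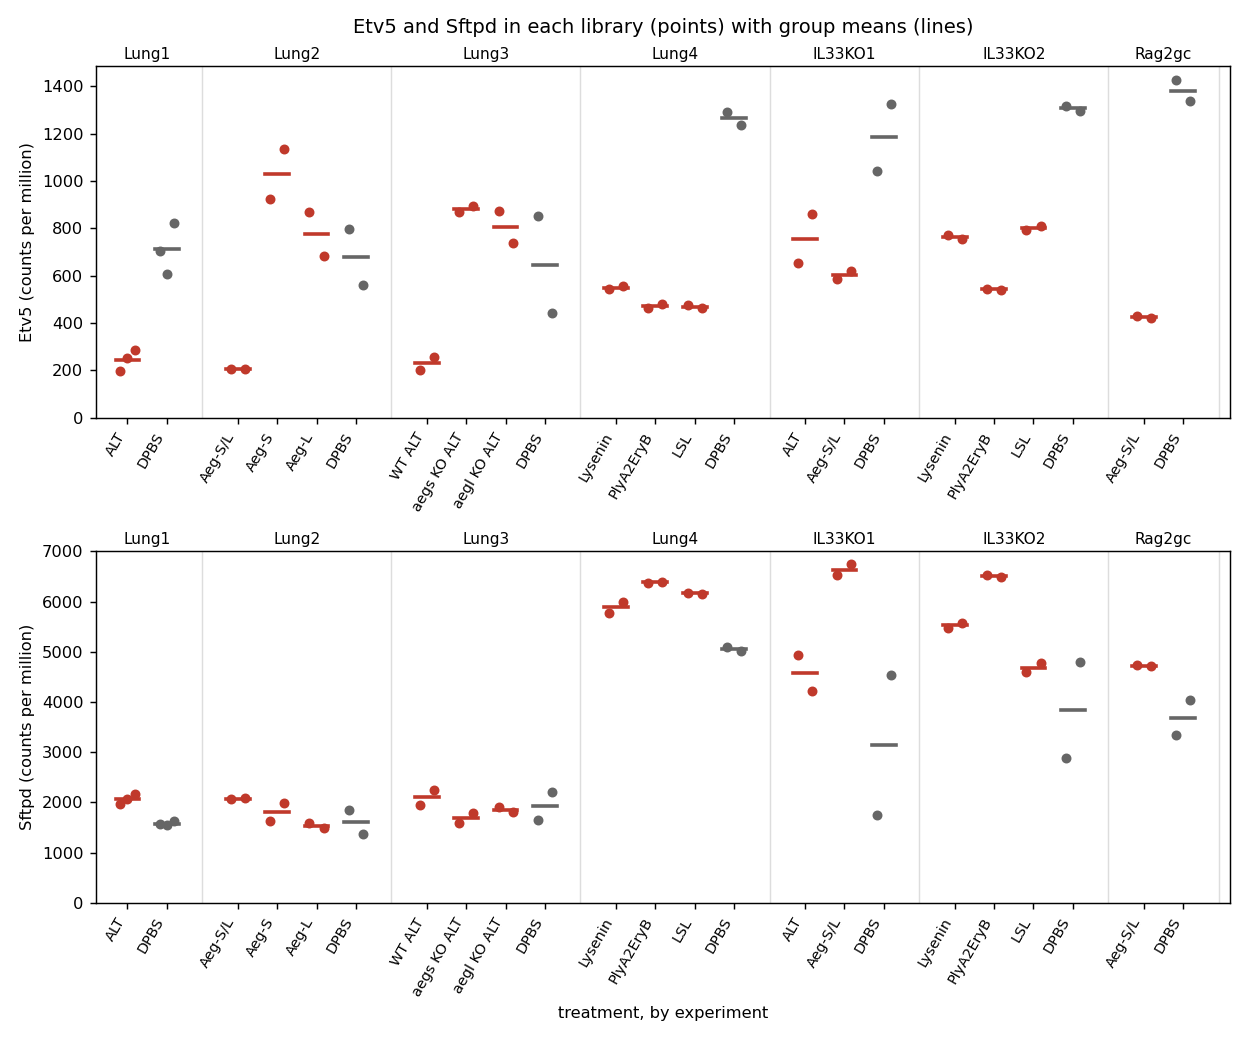
Etv5 (upper panel) and Sftpd (lower panel) in CPM, by experiment and treatment. Points are libraries, red for treated and grey for DPBS, and lines are group means. Etv5 is between 197 and 284 CPM in ALT libraries of Lung1, against 607 to 821 CPM in DPBS, whereas Sftpd is higher in ALT libraries.

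Lysenin, a pore-forming protein of earthworms, and the proteins labelled PlyA2EryB and LSL were given in Lung4. With Lysenin 9 members fell and 0 rose, with PlyA2EryB 9 fell and 1 rose, and with LSL 9 fell and 1 rose. Of all genes, 31.6%, 31.9% and 32.7% fell and 32%, 32.8% and 33.1% rose with Lysenin, PlyA2EryB and LSL, so calls were common throughout this experiment. The median over the members was -0.60, -0.61 and -0.79 in the same order, against 0.02, 0.01 and 0.01 over all genes. Scaling by total counts in place of TMM shifts the median of all genes by 0.13 with Lysenin, 0.12 with PlyA2EryB and 0.18 with LSL. The share of higher genes among those called is then 61.2% in place of 50.4% with Lysenin and 63.4% in place of 50.3% with LSL.

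Etv5 fell most with each protein of Lung4. It had 543 and 555 CPM with Lysenin, 464 and 482 CPM with PlyA2EryB and 475 and 461 CPM with LSL, against 1292 and 1237 CPM with DPBS. The log2 changes were -1.34 ± 0.04, -1.54 ± 0.04 and -1.62 ± 0.04 (SE, n = 2 each; adjusted p = 4.42e-15, 5.34e-16 and 2.38e-16). Sftpd had 5783 and 5991 CPM with Lysenin, 6375 and 6388 CPM with PlyA2EryB and 6168 and 6160 CPM with LSL, against 5105 and 5012 CPM with DPBS. All treated libraries were above the DPBS libraries in CPM, by small amounts, but CPM is not scaled by TMM as the log2 changes are. The log2 change was 0.08 ± 0.04 with Lysenin, which did not pass (adjusted p = 0.0629), and 0.22 ± 0.04 with PlyA2EryB, which did. With LSL it was 0.10 ± 0.04 and passed (adjusted p = 0.0236), but not without LSL replicate 1 or LSL replicate 2 (adjusted p = 0.093 and 0.098). With Lysenin Sftpd passed under DESeq2's size factors (0.09, adjusted p = 0.033) and under total counts (0.22, adjusted p = 6.9e-06). Sftpc fell by 0.88, 0.63 and 1.12 on the log2 scale with Lysenin, PlyA2EryB and LSL, Abca3 by 0.73, 1.06 and 0.94, and Slc34a2 by 0.77, 1.01 and 0.77. Mitochondrial counts were 4.11% and 4.34% with PlyA2EryB, against 2.88% and 3.54% with DPBS.

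Between pairs of the pore-forming proteins of Lung4, the members' differences lay between -0.49 and 0.25 on the log2 scale. The 3 pairs were tested with p-values adjusted over all genes in each. Between PlyA2EryB and Lysenin 5 members were lower and 2 higher (11% of all genes were lower and 11.7% higher). The largest of these was Abca3, with 1360 and 1387 CPM for PlyA2EryB, against 1767 and 1722 CPM for Lysenin, or -0.33 ± 0.04 on the log2 scale. Sftpc ran the other way at 0.25 ± 0.04, with 47350 and 46663 CPM for PlyA2EryB, against 40085 and 39736 CPM for Lysenin. Sftpa1 and Sftpb differed least, each at -0.01 ± 0.04. Sftpa1 had 20506 and 20979 CPM with PlyA2EryB, against 21040 and 21218 CPM with Lysenin. Between LSL and Lysenin 7 members were lower (12.9% of all genes were lower and 13.8% higher). Nkx2-1 led them with 267 and 271 CPM for LSL, against 319 and 325 CPM for Lysenin, or -0.31 ± 0.05. Slc34a2 differed least there, at 0.00 ± 0.04. Between LSL and PlyA2EryB 5 were lower and 2 higher (17.5% and 16% of all genes). Sftpc was farthest apart, with 34136 and 35676 CPM for LSL, against 47350 and 46663 CPM for PlyA2EryB, or -0.49 ± 0.04. Slc34a2 was higher with LSL by 0.24 ± 0.04 and Abca3 by 0.11 ± 0.04. The Abca3 and Sftpd calls between LSL and PlyA2EryB were lost without any 1 of the 4 libraries. The Sftpd and Lamp3 calls between PlyA2EryB and Lysenin were lost in the same way, and that of Etv5 without PlyA2EryB replicate 1.

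Mice labelled IL-33 KO lack the cytokine IL-33, an alarm signal that lung epithelial cells release. The level of the targeted gene itself was not analysed here. In IL33KO1, 0 of 10 members passed with ALT by edgeR, where 0.518% of all genes fell and 2.4% rose. At an unadjusted p under 0.05, 2 members passed, and DESeq2 called 2, Lamp3 at -0.89 (adjusted p = 0.00028) and Etv5 at -0.71 (adjusted p = 0.024). Lamp3 had 2511 and 2878 CPM with ALT, against 4393 and 5185 CPM with DPBS, and its log2 change by edgeR was -0.87 ± 0.23 (SE, n = 2 each; adjusted p = 0.0896). Etv5 had 652 and 861 CPM with ALT, against 1042 and 1327 CPM with DPBS, and changed by -0.69 ± 0.22. Neither gene's groups overlapped. Sftpb was nearest to 0, with 19761 and 20564 CPM for ALT, against 17023 and 19863 CPM for DPBS. Without DPBS replicate 1, 5 members fell, Sftpa1, Lamp3, Napsa, Slc34a2 and Etv5. Without DPBS replicate 2, Lamp3 fell and Sftpd and Napsa rose, at 1.43 and 0.67. Sftpd, at 4946 and 4223 CPM with ALT, lay to either side of the 4540 CPM of DPBS replicate 2 and above the 1756 CPM of replicate 1.

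With Aeg-S/L in IL33KO1, Etv5 and Nkx2-1 fell, 2 of the 10 members, while 4.53% of all genes fell and 6.4% rose. Etv5 had 586 and 618 CPM with Aeg-S/L, against 1042 and 1327 CPM with DPBS, or -0.98 ± 0.22 (SE; adjusted p = 0.0426). Nkx2-1 had 305 and 322 CPM with Aeg-S/L, against 651 and 460 CPM with DPBS, or -0.81 ± 0.18 (adjusted p = 0.0392). Sftpd was the member with the largest difference of all. It had 6529 and 6742 CPM with Aeg-S/L, against 1756 and 4540 CPM with DPBS, and changed by 1.05 ± 0.47 (adjusted p = 0.172). Sftpa1 changed least, with 21874 and 21201 CPM for Aeg-S/L, against 18270 and 25351 CPM for DPBS. Without DPBS replicate 1, Slc34a2, Etv5 and Nkx2-1 fell and Sftpd was at 0.46. Without DPBS replicate 2, Etv5 and Nkx2-1 fell and Sftpd and Napsa rose, at 2.02 and 1.41. Without Aeg-S/L replicate 1 or Aeg-S/L replicate 2, 0 members passed. Napsa was at 0.46 ± 0.43 with both DPBS libraries.

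In IL33KO2, 5 members fell with Lysenin, 5 fell and 1 rose with PlyA2EryB, and 5 fell with LSL. Of all genes, 18.9%, 24.6% and 17.9% fell and 20.7%, 25.7% and 19.5% rose in that order. Sftpb, Abca3, Etv5 and Nkx2-1 fell with all 3 proteins. Etv5 had 770 and 754 CPM with Lysenin, 545 and 540 CPM with PlyA2EryB and 794 and 812 CPM with LSL, against 1318 and 1297 CPM with DPBS. Its log2 changes were -0.83 ± 0.05, -1.20 ± 0.05 and -0.78 ± 0.05 (SE, n = 2 each). Without DPBS replicate 1 the Etv5 changes were -0.84, -1.20 and -0.77, and without DPBS replicate 2 they were -0.83, -1.19 and -0.77. Nkx2-1 had 344 and 351 CPM with Lysenin, 289 and 277 CPM with PlyA2EryB and 322 and 362 CPM with LSL, against 739 and 487 CPM with DPBS. It fell by 0.87 ± 0.16, 1.05 ± 0.16 and 0.92 ± 0.16. Abca3 fell by 0.69, 0.88 and 0.75 on the log2 scale. Sftpc fell with Lysenin and LSL, by 0.67 and 0.53, and was at -0.18 ± 0.14 with PlyA2EryB.

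The DPBS libraries of IL33KO2 lay close for Etv5, but apart for Sftpd and Napsa. They lay apart too for Nkx2-1, at 739 and 487 CPM, and for Sftpc, at 73164 and 52434 CPM. Sftpd rose with PlyA2EryB by 0.83 ± 0.20 (adjusted p = 0.00998), and was at 0.47 ± 0.20 with Lysenin and 0.21 ± 0.20 with LSL. It had 5484 and 5569 CPM with Lysenin, 6534 and 6498 CPM with PlyA2EryB and 4598 and 4770 CPM with LSL, against 2879 and 4804 CPM with DPBS. Napsa was nearest to 0 with Lysenin, at 1475 and 1511 CPM, against 1182 and 1692 CPM with DPBS. Slc34a2 fell by 0.37 ± 0.09 with PlyA2EryB, and had 17082 and 17242 CPM with LSL, against 15434 and 18445 CPM with DPBS. Without DPBS replicate 1, 9 members fell and 1 rose with Lysenin, 6 fell and 1 rose with PlyA2EryB, and 10 fell with LSL. Without DPBS replicate 2, 5 fell and 3 rose with Lysenin, 6 fell and 4 rose with PlyA2EryB, and 5 fell and 4 rose with LSL. Against replicate 1 alone Sftpd was at 0.90, 1.27 and 0.64, and against replicate 2 alone at 0.13, 0.50 and -0.12, with Lysenin, PlyA2EryB and LSL. With 1 Lysenin library in place of 2, 3 members passed, whichever was left out. With 1 PlyA2EryB library 3 or 4 passed, and the Sftpd call was lost without the first of them (adjusted p = 0.052). Without LSL replicate 1, 3 members passed.

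**Figure D4:**
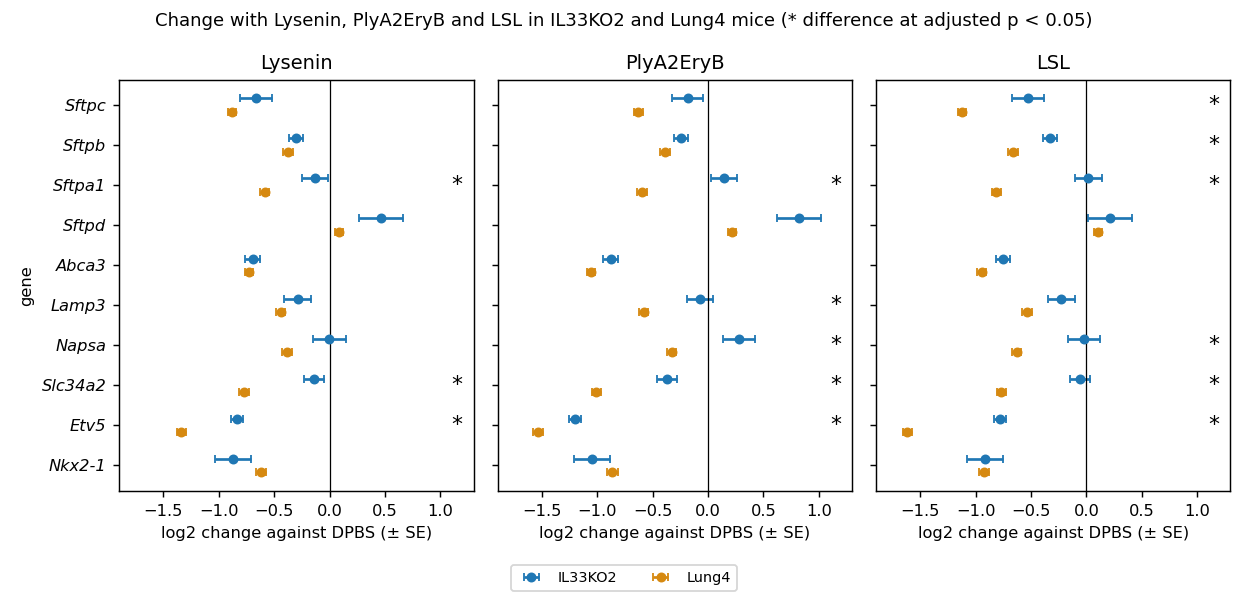
log2 change of each member against its own DPBS with Lysenin, PlyA2EryB and LSL, in IL33KO2 (blue, above) and Lung4 (orange, below), with SE bars. An asterisk marks members whose changes differ at an adjusted p under 0.05: 3 with Lysenin, 5 with PlyA2EryB and 6 with LSL. Each of these has the higher log2 change in IL33KO2.

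The same proteins were compared between IL33KO2 and Lung4 by the difference of their changes, each against its own DPBS. Mouse genotype and experiment cannot be told apart in this comparison. With Lysenin the log2 change was higher in IL33KO2 for 3 members and lower for 0, with PlyA2EryB for 5 and 0, and with LSL for 6 and 0. Higher can mean above 0, as for Sftpa1 at 0.14 with PlyA2EryB in IL33KO2. Of all genes, 7.8%, 7.86% and 11.5% differed in the positive direction and 6.73%, 6.83% and 11.1% in the negative. Etv5, Slc34a2 and Sftpa1 differed with all 3 proteins. The Sftpa1 call with Lysenin (adjusted p = 0.0384) was lost without either Lysenin library of IL33KO2 or of Lung4, and without Lung4 DPBS replicate 1. For Etv5 the difference was 0.52 ± 0.07 with Lysenin, 0.33 ± 0.07 with PlyA2EryB and 0.83 ± 0.07 with LSL (SE; adjusted p = 0.000433, 0.00762 and 2.39e-06). For Slc34a2 it was 0.64 ± 0.11, 0.63 ± 0.11 and 0.71 ± 0.11. For Sftpa1 it was 0.46 ± 0.14, 0.73 ± 0.14 and 0.83 ± 0.14. For Nkx2-1 it was -0.24 ± 0.18, -0.19 ± 0.18 and 0.00 ± 0.18, and for Abca3 0.04 ± 0.08, 0.17 ± 0.08 and 0.18 ± 0.08, none of which passed. With total counts in place of TMM, 2, 2 and 6 members differed, and the share of positive differences among all genes called was 32.8%, 14.6% and 33.4%, in place of 53.7%, 53.5% and 51.0%. Without IL33KO2 DPBS replicate 2, 7, 10 and 10 members differed, of which 1 was negative for each protein. With PlyA2EryB 3 differed without any 1 PlyA2EryB library of IL33KO2 or of Lung4. Etv5 and Slc34a2 differed in each fit that left out 1 library of IL33KO2 or Lung4, for all 3 proteins.

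Fewer members differed in the other comparisons of IL33KO1 with unlabelled mice, where genotype and experiment cannot be told apart either. Between ALT in IL33KO1 and ALT in Lung1, Nkx2-1 alone differed, by 0.83 ± 0.22 (SE; adjusted p = 0.0242), while 8.38% of all genes differed in that direction and 5.1% in the other. The call was lost without IL33KO1 ALT replicate 2, Lung1 ALT replicate 1, Lung1 ALT replicate 2, Lung1 DPBS replicate 1 or Lung1 DPBS replicate 3. Without IL33KO1 DPBS replicate 1, 2 members differed downwards and 1 upwards, and without replicate 2, 8 differed upwards. Slc34a2 was at 0.78 ± 0.28 (adjusted p = 0.087) and Etv5 at 0.81 ± 0.28 (adjusted p = 0.0764). Between Aeg-S/L in IL33KO1 and Aeg-S/L in Lung2, 0 members differed by edgeR (5.05% of all genes differed upwards and 3.57% downwards). At an unadjusted p under 0.05 the count was 2, and DESeq2 called 1. Slc34a2 was closest to the threshold, at 1.27 ± 0.39 (adjusted p = 0.0656). Without IL33KO1 DPBS replicate 2, 3 members differed upwards.

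Mice labelled Rag2-/-; gc-/- lack T and B lymphocytes and, through the common gamma chain, innate lymphoid cells. In these mice Aeg-S/L lowered 9 of the 10 members and raised Sftpd, while 34.4% of all genes fell and 33.7% rose. Etv5 had 429 and 421 CPM with Aeg-S/L, against 1426 and 1339 CPM with DPBS. The fall of 1.74 ± 0.07 on the log2 scale was its largest in any comparison with DPBS (SE, n = 2 each; adjusted p = 1.51e-08). Abca3 fell by 1.20 ± 0.07, Nkx2-1 by 1.09 ± 0.06 and Slc34a2 by 1.03 ± 0.07. Sftpd had 4740 and 4711 CPM with Aeg-S/L, against 3345 and 4038 CPM with DPBS. It rose by 0.32 ± 0.08 (adjusted p = 0.00634), and the call was lost without Aeg-S/L replicate 1 (0.30, adjusted p = 0.068). Sftpa1 fell by 0.39 ± 0.08, and that call was lost without Aeg-S/L replicate 2 (-0.38, adjusted p = 0.057). Against Aeg-S/L in Lung2, 0 members differed in their change by edgeR, 0 at an unadjusted p under 0.05 and 0 by DESeq2, while 3.12% of all genes differed upwards and 4.46% downwards. The shares among all genes turn round with the scaling: 41.1% of differing genes were upwards under TMM, 55.2% under DESeq2's size factors and 68.7% under total counts, which shift the median of all genes by 0.12 and 0.25. The difference for Etv5 was -0.23 ± 0.30 and for Slc34a2 0.54 ± 0.33 (SE). Errors of this size cannot show that the changes are alike. Mouse genotype and experiment cannot be told apart in this comparison either.

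Across the 12 comparisons of ALT or a complete pore-forming protein with DPBS, Etv5 was most often the lowest member and Sftpd the highest. Comparisons within an experiment share their DPBS libraries, so these 12 are not independent. Etv5 and Nkx2-1 fell in 11, Sftpb and Abca3 in 9, Sftpc and Slc34a2 in 8, and Sftpa1, Lamp3 and Napsa in 6, with the rest not passing. Of all genes, 0.518% fell and 2.4% rose with ALT in IL33KO1, the lowest shares. The highest were 34.4% and 33.7%, with Aeg-S/L in Rag2gc. The calls of Etv5 and Nkx2-1 with Aeg-S/L in IL33KO1 were lost with a replicate block. Etv5 had the lowest value of the 10 members in 8 comparisons, Nkx2-1 in 2, Slc34a2 in 1 and Lamp3 in 1. Sftpd fell in 0, rose in 5 and had the highest value of the 10 members in 12 of 12. The median over these comparisons was -1.41 for Etv5, -0.92 for Nkx2-1, -0.86 for Abca3, -0.77 for Slc34a2, -0.58 for Sftpc and 0.38 for Sftpd. The place of Sftpd as the highest and its sign held under TMM, DESeq2's size factors and total counts. Its place was lost for WT ALT in Lung3 without DPBS replicate 1, where Abca3 was above 0 and Sftpd below. In that fit Sftpc was lower than Etv5. Places in the other fits that left out 1 library are not given here. The sign of Sftpd turned when 1 library was left out in 4 cases. These were WT ALT in Lung3 without DPBS replicate 1 (-0.16) or WT ALT replicate 2 (-0.01), ALT in IL33KO1 without DPBS replicate 1 (-0.12) and LSL in IL33KO2 without DPBS replicate 1 (-0.12). In the 4 comparisons of Aeg-S, Aeg-L and the knockout extracts with DPBS, Etv5 was between 0.21 and 0.68 and Sftpd between -0.23 and 0.24, and neither passed.

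The contrast between the pair can be read within a library, free of any scaling. Etv5 and Sftpd were chosen for this after their changes had been seen, and no test was made. With ALT in Lung1 there were 100.4, 122 and 131 counts of Etv5 per 1000 counts of Sftpd, against 448, 393 and 504 with DPBS. Over the 12 comparisons the treated libraries held 72.8 to 204 Etv5 counts per 1000 of Sftpd, and the DPBS libraries 199 to 593. Within each experiment the treated libraries lay below the DPBS libraries in all 12. The lowest DPBS value was that of Lung3 DPBS replicate 2. The libraries of Aeg-S, Aeg-L and the knockout extracts held 407 to 571. Those of Aeg-S, at 566 to 571, and Aeg-L, at 456 to 547, lay above the DPBS libraries of Lung2, at 408 to 430. Libraries of both knockout extracts overlapped the DPBS libraries of Lung3. Sftpd also moved against Sftpc, the most abundant member. In Lung1 there were 62.6 ± 2.5 counts of Sftpd per 1000 of Sftpc with ALT, against 30.9 ± 0.6 with DPBS (SD, n = 3 each).

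**Figure D5:**
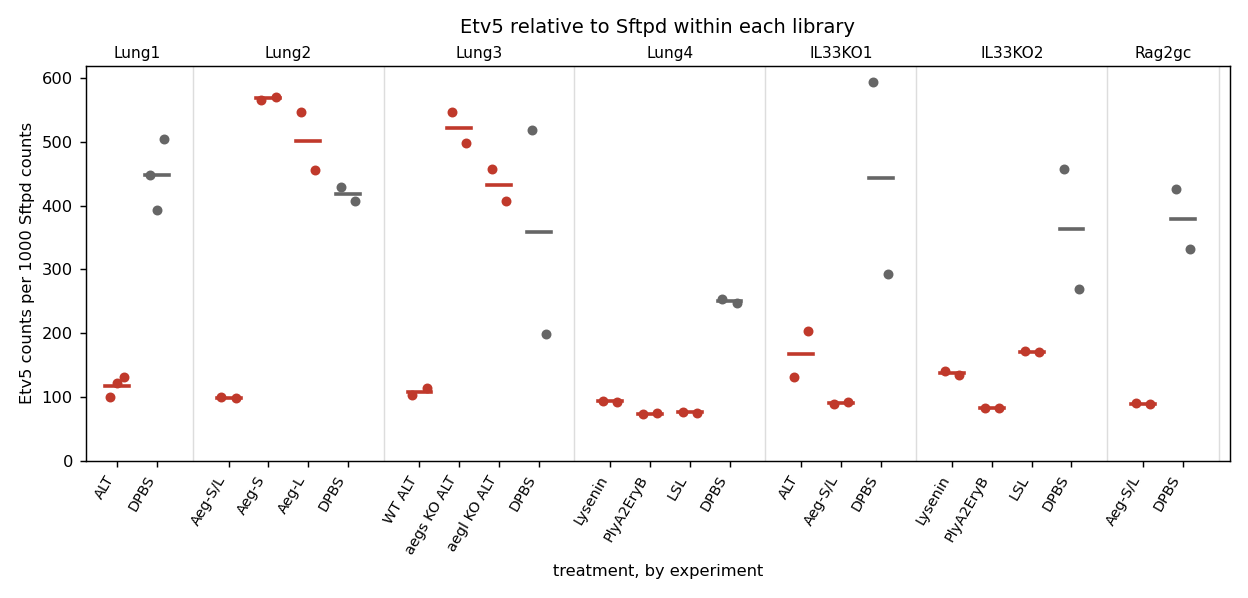
Counts of Etv5 per 1000 counts of Sftpd in each library (points) with group means (lines), by experiment and treatment, red for treated and grey for DPBS. Libraries given ALT or a complete pore-forming protein hold 72.8 to 204, while those given Aeg-S, Aeg-L or a knockout extract hold 407 to 571.

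Likeness among the members was described over the 48 libraries by Pearson's r between each gene's log2(CPM + 1), taken relative to its experiment's mean, and the mean of the 10 members. Libraries of a group share their treatment and the member is part of the mean, so r is a description. It was 0.96 for Etv5, 0.96 for Slc34a2 and 0.94 for Sftpb, and between 0.80 and 0.90 for Abca3, Lamp3, Nkx2-1, Sftpa1 and Sftpc. Napsa stood at 0.59 and Sftpd at -0.32. Among 9429 genes with a mean of at least 10 CPM, the 5 genes outside the members that were most alike reached 0.97 to 0.98, led by ENSMUSG00000037366.14 (0.98). The tables give no name for these IDs.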

How the data were processed

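RNA of mouse lung epithelial cells was sequenced from NEBNext Ultra libraries, a kit that does not mark strand, per the labels' protocols. Whole-number read counts per gene were deposited by the authors. The submitters' processing notes name HISAT2 2.2.1, SAMtools, featureCounts 2.0.2, DESeq2 1.36.0 and R 4.2.2, and mm10 for mouse. For the counting, no strand setting is stated in those notes. All mouse count columns were used. The columns of IL33KO2 Lysenin, IL33KO2 PlyA2EryB and Rag2gc DPBS share 1 header name within each group, so they were taken as 2 libraries of that group without a replicate number. In Lung4, 2 lines without a gene ID were left out.

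CPM was taken per 1000000 counts of each library, without TMM, so it can differ from the log2 changes, which use TMM. Under TMM, 79 of 230 group means of the members moved by at least 1 SD of the group's libraries. Each experiment was fitted by edgeR 4.0.16 in R 4.3.3 with all its groups sharing 1 estimate of the spread (TMM scaling, filterByExpr, quasi-likelihood F test, Benjamini-Hochberg adjustment over all genes tested). Calls are those with an adjusted p under 0.05. Changes are log2, with SE = |log2 change| / √F. The 6 comparisons between experiments were fitted on tables joined by gene ID, as differences of changes.

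The members and lists were chosen with earlier results of these data known. All members are accounted for in each comparison. Values per library are given for those with the largest and smallest change and for those opposite to most. Alternatives were other scaling, no filter, DESeq2 1.42.0, a replicate block and leaving out each library. Libraries of a group differed by more than counting noise (chi-square per degree of freedom of at least 2.95 over 27 pairs). The value was 226 for Lung3 DPBS, 160 for IL33KO1 DPBS and 80.0 for IL33KO2 DPBS. Treated groups of those experiments had 9.59 to 22.4, 4.54 to 53.3 and 2.98 to 3.85, in the same order. A shared estimate of the spread assumes that groups vary alike, so SEs against these DPBS groups can be too small. Other gene lists, markers of other cell types, the genes named by the knockout labels and sequences were not analysed here, since no mouse annotation was used.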

Additional observations from a re-analysis of the deposited data

Results flagged for a closer look

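For these members the change against DPBS differed between 2 experiments under the same treatment, by an edgeR test of the difference itself with adjustment over all genes. Each value is the change in the first experiment minus the change in the second, on the log2 scale with its SE, and genotype and experiment cannot be told apart.

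With LSL in IL33KO2 and Lung4, the difference was 0.83 ± 0.07 for Etv5 (adjusted p = 2.39e-06), 0.83 ± 0.14 for Sftpa1 (0.000695), 0.71 ± 0.11 for Slc34a2 (0.000403), 0.60 ± 0.17 for Napsa (0.0181), 0.59 ± 0.15 for Sftpc (0.0129) and 0.33 ± 0.09 for Sftpb (0.015). With PlyA2EryB in the same experiments it was 0.73 ± 0.14 for Sftpa1 (adjusted p = 0.00373), 0.63 ± 0.11 for Slc34a2 (0.00233), 0.60 ± 0.17 for Napsa (0.0276), 0.50 ± 0.14 for Lamp3 (0.0269) and 0.33 ± 0.07 for Etv5 (0.00762). With Lysenin it was 0.64 ± 0.11 for Slc34a2 (adjusted p = 0.00186), 0.52 ± 0.07 for Etv5 (0.000433) and 0.46 ± 0.14 for Sftpa1 (0.0384). That Sftpa1 call was lost without either Lysenin library of IL33KO2 or of Lung4, and without Lung4 DPBS replicate 1. The comparisons within these experiments share their DPBS libraries. With ALT in IL33KO1 and Lung1 it was 0.83 ± 0.22 for Nkx2-1 (adjusted p = 0.0242). Depth was 37.9 to 57.8 M counts in the libraries of IL33KO2 and 37.2 to 59.1 M in those of Lung4. It was 34.2 to 47.7 M in the ALT and DPBS libraries of IL33KO1 and 31.1 to 38.1 M in Lung1. The part of depth was not tested.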

How the results depend on the processing

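Counts of members past the threshold stayed within 1.5 times the reported count in all comparisons when DESeq2's size factors replaced TMM. With no filter on low counts the count was 2 for Lung2 Aeg-S against DPBS, 8 for Aeg-S/L against Aeg-S, 8 for aegs KO ALT and 8 for aegl KO ALT against WT ALT, 3 for IL33KO1 ALT and 4 for IL33KO1 Aeg-S/L. Between experiments it was 3 for IL33KO1 and Lung1 ALT, 3 for IL33KO1 and Lung2, 7 for IL33KO2 and Lung4 Lysenin, and 1 for Rag2gc and Lung2. With DESeq2 it was 2 for IL33KO1 ALT, 4 for IL33KO1 Aeg-S/L, 3 for IL33KO1 and Lung1 ALT and 1 for IL33KO1 and Lung2. With total counts it was 1 for IL33KO1 Aeg-S/L, 4 for IL33KO1 and Lung1 ALT, 1 for IL33KO1 and Lung2, 2 for IL33KO2 and Lung4 Lysenin, and 2 for IL33KO2 and Lung4 PlyA2EryB. The share of all genes called under each setting, or without each library, is not given here. Counts in this section therefore cannot tell a change of the members from a general change in calls. The cause was not tested.

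Leaving out 1 library at a time gave these ranges of the count against DPBS: 9 to 10 for Lung1 ALT, 0 to 0 for Aeg-S and for Aeg-L, 3 to 5 for Lung2 Aeg-S/L, 3 to 10 for WT ALT, 0 to 7 for aegs KO ALT, 0 to 6 for aegl KO ALT, 9 to 10 for Lung4 Lysenin and for LSL, 10 to 10 for Lung4 PlyA2EryB, 0 to 5 for IL33KO1 ALT, 0 to 4 for IL33KO1 Aeg-S/L, 3 to 10 for each protein of IL33KO2 and 9 to 10 for Rag2gc. Between treatments it was 4 to 8 for Aeg-S/L against Aeg-S, 3 to 5 against Aeg-L, 3 to 10 for aegs KO ALT and 3 to 9 for aegl KO ALT against WT ALT, 4 to 5 for PlyA2EryB against Lysenin, 7 to 7 for LSL against Lysenin and 5 to 5 for LSL against PlyA2EryB. Between experiments it was 0 to 8 for ALT, 0 to 3 for IL33KO1 and Lung2 Aeg-S/L, 2 to 7 for Lysenin, 3 to 10 for PlyA2EryB, 4 to 10 for LSL and 0 to 0 for Rag2gc.

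Opposite directions past the threshold came from the DPBS libraries of the IL-33 KO mice, and the values here are the lowest and highest over all libraries left out in turn, reached without DPBS replicate 1 and DPBS replicate 2 of IL33KO1 or IL33KO2. Napsa ranged from -0.85 to 0.67 with ALT in IL33KO1, from -0.25 to 0.30 with Lysenin in IL33KO2 and from -0.26 to 0.28 with LSL. In IL33KO2, Sftpa1 ranged from -0.33 to 0.087 with Lysenin and from -0.17 to 0.24 with LSL. Lamp3 ranged from -0.26 to 0.17 with PlyA2EryB, Slc34a2 from -0.19 to 0.10 with LSL and Sftpd from -0.12 to 0.64 with LSL. The ALT difference of IL33KO1 from Lung1 ranged from -0.51 to 1.01 for Sftpd and from -0.50 to 0.99 for Napsa. The LSL difference of IL33KO2 from Lung4 ranged from -0.22 to 0.55 for Sftpd, and from -0.24 without replicate 2 to 0.34 without replicate 1 for Nkx2-1.

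Replicate numbers were shared between groups, but libraries of the same number did not deviate together (correlations of -0.24 to 0.09). In groups of 2 libraries the deviations mirror each other, so these correlations cannot exclude that the numbers pair the libraries. With a replicate block the count was 0 in place of 2 for IL33KO1 Aeg-S/L and 3 in place of 5 for IL33KO2 LSL.

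Total counts shifted the median of all genes by more than 0.1 in further comparisons, by -0.14 for Lung2 Aeg-S/L against DPBS and -0.11 against Aeg-L, -0.18 for IL33KO2 and Lung4 PlyA2EryB and -0.10 for LSL. Higher genes then made up 39.3% of calls in place of 49.2% for Lung2 Aeg-S/L against DPBS and 40.8% in place of 49.0% against Aeg-L, and 64.3% of calls in place of 51.8% for LSL against Lysenin, 62.7% in place of 47.8% for LSL against PlyA2EryB, 62.2% in place of 52.2% for IL33KO2 LSL and 69.3% in place of 58.6% for IL33KO1 and Lung2. What the depth limits was not tested.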
